A study of Mus musculus with 2 samples.

Results

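Barcodes of the proximal and periurethral prostate library were selected for 6 genes of the blood and lymph vessel lining, Pecam1, Cdh5, Plvap, Egfl7, Emcn and Flt1. A barcode was kept when it had at least 500 genes and no more than 10% of its UMIs (unique molecular identifiers, each standing for 1 captured RNA molecule) from mitochondrial genes. A kept barcode was a member when the 6 genes together gave at least 8 UMIs and at least 0.1% of all its UMIs. This rule found 166 members among 3709 kept proximal barcodes, 4.48% (3.83% to 5.19%), and among 5704 kept barcodes of the series. In the ventral library the same rule found 0 of 1995 kept barcodes, which allows a share of up to 0.1504% by a limit of 3 counts (exact upper bound 0.185%). The members' levels of these 6 genes follow from the rule and are given as a description.

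The series profiled dissociated prostates of wild-type male C57BL6 mice by droplet single-cell RNA sequencing, with 1 library of the ventral lobes and 1 of the proximal and periurethral region, the tissue next to the urethra. Both were dissociated with papain and then TrypLE, per the labels' protocols, which name no sort, and whether several mice were pooled is not given in the sources used here. The reagent kit was v3 for the proximal and v2 for the ventral library, so region and kit cannot be told apart. With 1 library per group there is no replicate check and no test, and barcodes of 1 library are not replicates. The kept proximal barcodes had a median of 15266 UMIs, the members 14104, and no barcode sequence was shared between the libraries. Intervals in parentheses are exact at 95% and describe counting error only.

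Endothelial cells line blood and lymph vessels, where they form a barrier, control which molecules and leukocytes cross it, and keep blood from clotting. They are held together by VE-cadherin, the product of Cdh5, and claudin-5, and they respond to VEGF through the receptors made from Flt1, Kdr and Flt4. Arteries, capillaries, veins and lymph vessels each add genes of their own to this shared programme. The prostate is supplied by a dense capillary bed around its ducts, embedded in fibroblasts and smooth muscle.

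The name endothelial was checked against 22 further pan-endothelial markers that the rule did not use, among them Cldn5, Kdr, Tek, Tie1, Ptprb, Cd93, Vwf and Nos3. Members fell into 2 kinds. In 60 of them, called multi-marker here, at least 3 of the 6 rule genes were found, and a median of 16 of the 22 further markers (range 1 to 21). In the other 106, called few-marker, 1 or 2 rule genes were found and a median of 1 of the 22 (range 0 to 4), the same median as in the 3543 other kept barcodes. Of the multi-marker members, 59 had at least 5 of the 22, and of the few-marker members 0. So did 20 of the 3543 other kept barcodes, 14 of them fibroblast-type. By these markers the label therefore held for 59 of the 60 multi-marker members and not for the 106 others, so both sets are called by their rule-gene count alone. The split was chosen after the values were seen.

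**Figure D1:**
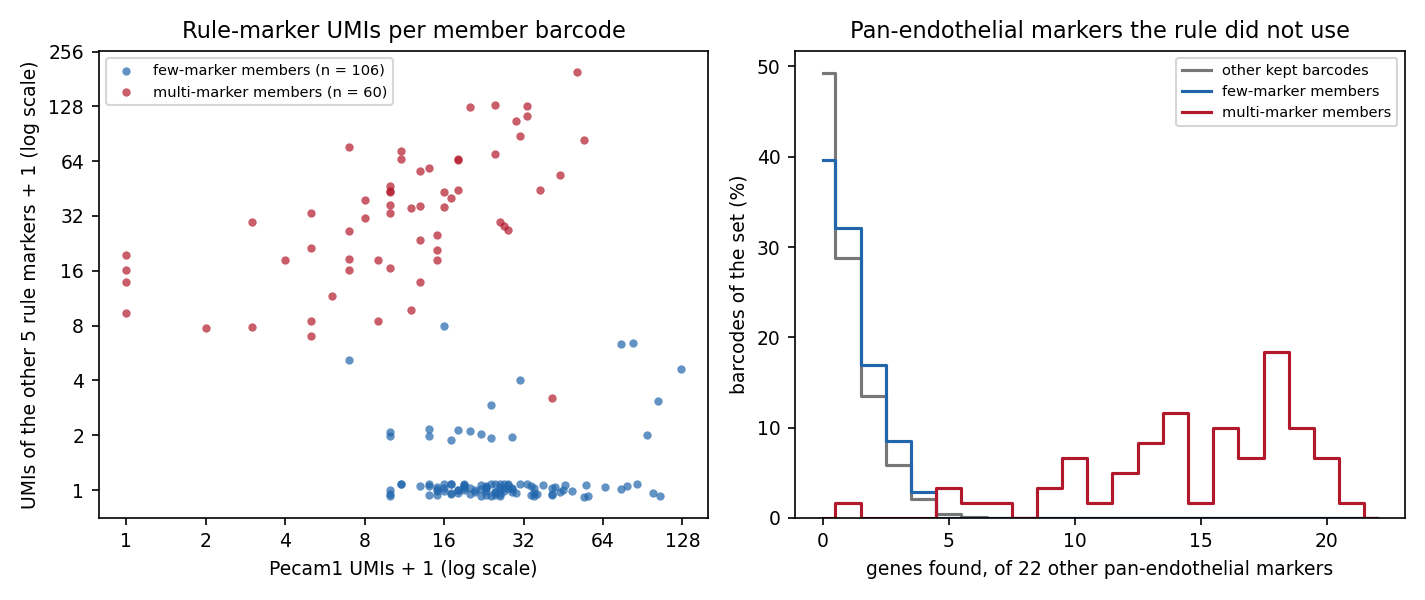
Left, Pecam1 UMIs (x axis) against UMIs of the other 5 rule genes (y axis) in each of the 166 members, both plus 1 on log scales, with a small random vertical shift to separate points. Right, number of the 22 further pan-endothelial markers found per barcode (x axis) as a percentage of the barcodes of each set (y axis); few-marker members and other kept barcodes both have a median of 1, multi-marker members 16.

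Of the few-marker members, 100 of 106 met the rule by Pecam1 alone, which encodes the junctional adhesion molecule CD31, and 6 needed UMIs of another rule gene as well. Pecam1 was the only rule gene found in 87 of the 106, and it made up 98.7% of their rule-gene UMIs, against 25.4% in the multi-marker members. Their Pecam1 counts ran from 6 to 125 UMIs with a median of 23, whereas the other 5 genes together had a median of 0 UMIs and a maximum of 7. In the multi-marker members Pecam1 ran from 0 to 53 UMIs with a median of 11, and the other 5 genes from 2 to 193 with a median of 31.5. The kinds overlapped in Pecam1, and the gap in the other 5 genes follows from how the split was made. Of the few-marker members, 81 also met the matching rule for epithelial markers (at least 8 UMIs and 0.1% from Epcam, Cdh1 and 5 keratin genes) and 24 that for fibroblast markers, 103 meeting at least 1 such rule. Of the multi-marker members, 6 did. No doublet caller was run, so barcodes that hold 2 cells remain in both sets.

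Near the thresholds, 77 members had a rule-gene share under 0.15%, of which 6 were multi-marker, and 2 members had exactly 8 UMIs. Of the other kept barcodes 775 had at least 8 UMIs but too low a share. Just outside, 106 of them had a share of at least 0.08%, and in 91 of these Pecam1 was the only rule gene found. The median share was 0.444% in multi-marker and 0.137% in few-marker members. Barcodes with a share just above the minimum were thus mostly few-marker, and those between 0.08% and 0.1% mostly had Pecam1 alone.

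Pecam1 was also found outside the members across the proximal library. Levels are given as CPM, UMIs of the gene per 1000000 UMIs summed over the barcodes of a set. Pecam1 stood at 212 CPM (208 to 215) in the 2348 proximal barcodes that met only the epithelial rule, 206 (193 to 219) in the 436 that met only the fibroblast rule and 30.5 (18.1 to 48.2) in the 52 that met only the macrophage rule. In the multi-marker members it was 1102 CPM (1030 to 1178), and in the few-marker members 1330 (1284 to 1376). In ventral epithelial-type barcodes it was 13.7 CPM. With each barcode thinned to 2000 UMIs, Pecam1 was found in 663 of 2323 proximal epithelial-type barcodes, 28.5%, in 4 of 52 macrophage-type barcodes, 7.69%, and in 46 of 59 multi-marker members, 78.0%. The other rule genes were lower outside the members: in epithelial-type barcodes Cdh5 was at 0.326 CPM, Flt1 at 0.784 and Emcn at 2.52, found in 108 of 2348. Of 436 fibroblast-type barcodes, 21 had Flt1 and 34 had Plvap, the latter at 9.72 CPM.

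A heat-shock share moved with Pecam1 in barcodes outside the multi-marker set. The share of UMIs from the heat-shock genes Hspa1a, Hspa1b, Dnajb1 and Hsph1, which encode chaperones induced by stress, had a median of 0.688% in few-marker members, 0.172% in multi-marker members and 0.222% in the other kept barcodes. Epithelial-type barcodes, with few-marker but not multi-marker members included, were ordered by this share and cut into 4 bins of near-equal size. Pecam1 stood at 102, 218, 280 and 400 CPM from the lowest to the highest bin, and the bins held 2, 7, 15 and 55 members. Fibroblast-type barcodes, handled the same way, gave 148, 222, 284 and 426 CPM. Most few-marker members met the rule by Pecam1 alone, so part of both rises can follow from the rule. Proximal bins without members were not computed. The 60 multi-marker members went the other way, from 1337 CPM in the lowest bin to 972 in the highest. Cdh5, itself a rule gene, stayed below 1 CPM in all 4 epithelial bins. A few epithelial-type barcodes outside the members were also missing from these bins, and they held Cdh5 UMIs. The low Cdh5 level thus follows in part from what was left out. Ventral epithelial-type barcodes, which held 0 members, had lower levels. From the lowest to the highest bin they stood at 8.49 (6.68 to 10.6), 14.3, 13.8 and 18.1 CPM (15.5 to 21.1) of Pecam1. The part of heat-shock expression in the few-marker members was not tested.

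**Figure D2:**
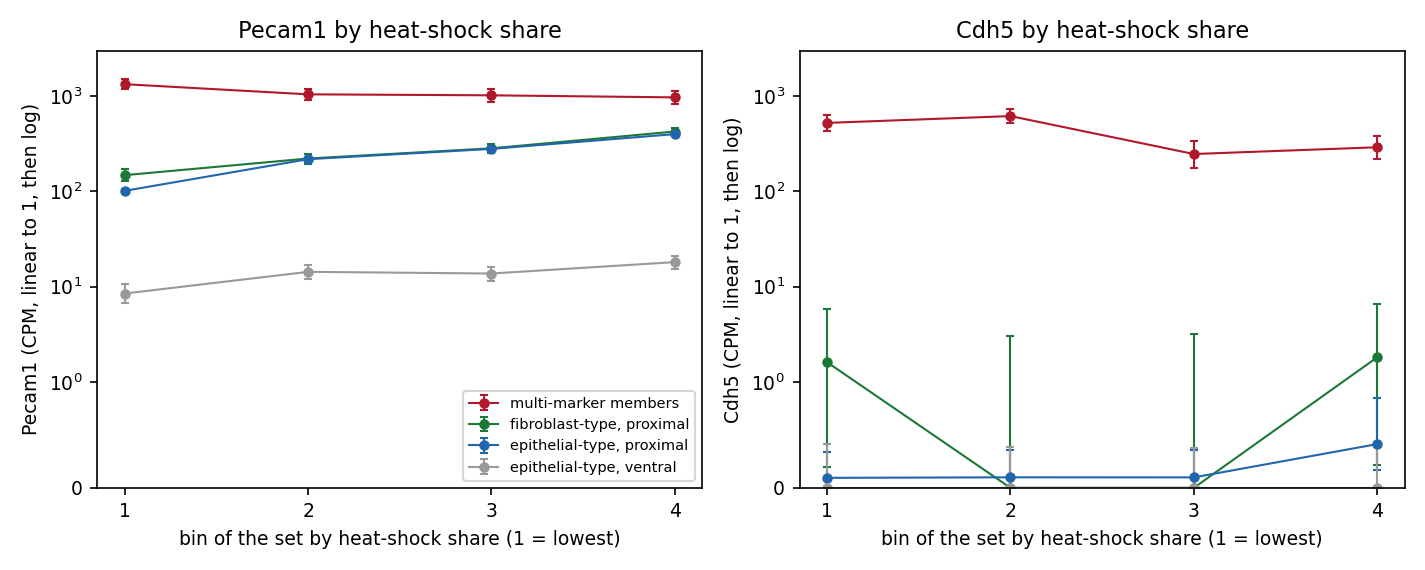
Pecam1 (left) and Cdh5 (right) in CPM, on an axis that is linear to 1 and logarithmic above, by bin of each set ordered on its heat-shock share; points are sums over barcodes and bars are exact 95% Poisson intervals. Pecam1 is higher in each bin than in the one before in proximal epithelial-type and fibroblast-type barcodes (102 to 400 and 148 to 426 CPM) and not in multi-marker members.

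Against epithelial-type barcodes the few-marker members had 45 of 8781 genes at least 4-fold higher (0.512%) and 26 lower (0.296%), led by the mesenchymal genes Mgp, Lgals1, Sparc and Vim, and 24 few-marker members met the fibroblast rule. Folds are ratios of CPM plus 10. Besides Pecam1, the 20 named genes that led the few-marker members over all other kept barcodes held none of the further pan-endothelial markers, and all 20 were under 4-fold. Over 8831 genes with at least 10 CPM in either set, 6 were at least 4-fold higher in few-marker members than in the other kept barcodes (0.0679%) and 30 at least 4-fold lower (0.34%). Pecam1 was among the 6 higher genes, and none of the 4 further pan-endothelial markers counted was. The other genes among the 6 did not meet the limits for naming. Among the lower were 5 of 8 secretory markers and 4 of 15 MHC and interferon genes, the class II genes Cd74, H2-Aa, H2-Ab1 and H2-Eb1. The 20 leading genes besides Pecam1, limited to those with at least 50 UMIs and found in at least 25% of the set, had log2 ratios of up to 1.95 and included the integrin genes Itgam and Itgad, Lsmem1 and the actin-severing gene Scin, Tesk2 and Zswim5, Irf1 and Hspa1a. Of these 20, 7 lay within 200 kb of another leading gene or of Pecam1, against 0 of 20 leading genes of the multi-marker members. Tex2 is in the count only by its distance to Pecam1, a rule gene. How often 20 counted genes lie this close over all genes was not computed, so both counts are a description. Itgam and Itgad lie 35885 bp apart on chromosome 7, Lsmem1 and Scin 41265 bp apart on chromosome 12, Tesk2 and Zswim5 71420 bp apart on chromosome 4, and Tex2 40794 bp from Pecam1 on chromosome 11, each pair on the same strand (GENCODE annotation of GRCm38; the files' build is mm10). Tex2 was at 80.9 CPM (70.0 to 93.1) in few-marker members, 31.7 (20.5 to 46.8) in multi-marker members and 22.1 (21.1 to 23.1) in the others. Milr1, 598 bp beyond the other end of Pecam1 on the opposite strand, stood at 78.1 CPM (67.3 to 90.0), 31.7 (20.5 to 46.8) and 22.2 (21.3 to 23.2). The neighbours of Pecam1 were thus also higher in the few-marker members than in the others. Milr1 overlaps Polg2, and how strand was used in counting is not given in the sources used here.

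The 166 members were also compared as 1 set. Of 9043 genes counted, 85 were at least 4-fold higher than in the other kept barcodes (0.94%) and 27 at least 4-fold lower (0.299%), and the leading genes were Iigp1, Cyyr1, Tm4sf1, Vim and Ptprm. Among the 22 further pan-endothelial markers, 16 of 21 counted were at least 4-fold higher. Against fibroblast-type barcodes 307 of 9969 genes were higher (3.08%) and 287 lower (2.88%), and the genes with the highest ratios were epithelial (Psca, Fxyd3, Krt15, Wfdc2, Tspan1 and Epcam), and 87 members met the epithelial rule. The vessel genes are therefore described in the 60 multi-marker members, 1.62% (1.24% to 2.08%) of the kept proximal barcodes, with a median of 10794.5 UMIs and 2970.5 genes.

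In the multi-marker members 437 of 9481 genes were at least 4-fold higher than in the other kept barcodes (4.61%) and 166 at least 4-fold lower (1.75%). The median log2 ratio over all genes counted was 0.10, and ratios are given without subtracting that shift. Without the 6 barcodes that met another type's rule, 495 were higher (5.26%) and 363 lower (3.85%). The 5 rule genes other than Pecam1 lay near 0 outside this set. Cdh5 (chr8:104101625-104144511) was at 445 CPM (400 to 494) against 0.418 (0.296 to 0.574) in the other kept barcodes and was found in 52 of 60. Flt1 (chr5:147561604-147726011), a VEGF receptor that binds the ligand tightly and signals weakly, was at 1015 CPM (946 to 1088) against 1.32 and was found in 56. Emcn (chr3:137341067-137432185), encoding the surface sialomucin endomucin, was at 906 CPM (841 to 975) against 2.16. Egfl7, a secreted protein of the vessel wall, reached 450 CPM (405 to 500) against 0.903, and Plvap, which builds the diaphragms of fenestrae and caveolae, 421 CPM (377 to 469) against 0.804 in 41 of 60. After thinning to 2000 UMIs, Cdh5 was found in 33 of 59 multi-marker members, 55.9% (42.4% to 68.8%), and in 0 of 2323 epithelial-type barcodes. Cdh5 is a rule gene and epithelial-type barcodes exclude members, so the selection itself favours this gap and the shares are a description. The unthinned shares were 86.7% and 0.639%, at median depths of 10794.5 and 20833 UMIs.

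The promoters of these genes are shown because ETS factors, a family that binds GGAA cores, were among the transcription factors highest in the set. RefSeq promoters (GRCm38.p6, 250 bases before to 50 after the start) were at hand for 3 of the 6 rule genes and 12 of the 22 further markers. The words AGGAAG and CGGAAG, on either strand, are in capitals.
Emcn, chr3:137340828-137341127, plus strand: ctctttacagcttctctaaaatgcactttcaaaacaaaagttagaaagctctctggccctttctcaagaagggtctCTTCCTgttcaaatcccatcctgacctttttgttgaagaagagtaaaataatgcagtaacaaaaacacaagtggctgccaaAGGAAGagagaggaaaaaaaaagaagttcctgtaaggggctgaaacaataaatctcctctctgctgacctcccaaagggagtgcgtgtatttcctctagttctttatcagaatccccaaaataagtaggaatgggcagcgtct
Flt1, chr5:147725962-147726261, minus strand: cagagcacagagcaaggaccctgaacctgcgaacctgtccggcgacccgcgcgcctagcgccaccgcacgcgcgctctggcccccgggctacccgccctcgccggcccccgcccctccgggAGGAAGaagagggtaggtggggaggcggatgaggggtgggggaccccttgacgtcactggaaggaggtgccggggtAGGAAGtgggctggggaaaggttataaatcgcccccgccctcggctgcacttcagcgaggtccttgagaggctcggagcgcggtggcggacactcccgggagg
Tie1, chr4:118489800-118490099, minus strand: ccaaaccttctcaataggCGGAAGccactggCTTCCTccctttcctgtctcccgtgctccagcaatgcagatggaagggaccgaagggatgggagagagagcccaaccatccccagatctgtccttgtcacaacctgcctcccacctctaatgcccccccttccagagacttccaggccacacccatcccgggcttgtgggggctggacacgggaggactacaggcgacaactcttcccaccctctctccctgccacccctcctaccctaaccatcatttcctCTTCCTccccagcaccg
Emcn and Flt1 hold 2 matches each and Tie1 holds 3. At least 1 match was present in 13 of the 19 promoters of the rule genes and further markers, 68.4%, in 46.5% of all 32851 promoters of the table, in 53.5% of the 9651 promoters of genes counted, and in 43.4% of the promoters of genes at least 4-fold higher in the multi-marker members. A gene can count more than once among the 19, as Ctla2a does with 2 overlapping promoters. The promoters of Cldn5, Kdr, Tek and Clec14a hold none. GATA words (AGATAA or else TGATAA) were in 4 of the 19, 21.1%, against 18.6% of all promoters and 10.2% of those of genes counted. SOX words (ACAAAG or else ACAATG) were in 3, 15.8%, against 28.6% and 19.9%. A match is a description of the letters and not a site.

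All 22 further pan-endothelial markers were at least 4-fold higher in the multi-marker members, with a median log2 ratio of 4.23 beside 0.10 over all genes. Cldn5, the claudin that seals endothelial tight junctions, was at 723 CPM (665 to 785) against 0.253 in the others and 0 UMIs in the few-marker members. It was found in 37 of 60 barcodes, with up to 81 UMIs in 1 of them. Cyyr1 was at 663 CPM (608 to 723) against 0.143 and found in 50, and Adgrl4, an adhesion receptor of sprouting vessels, at 372 CPM (330 to 417) against 0.143 and found in 42. Ptprb, the phosphatase that restrains Tie2 and VE-cadherin signalling, was at 356 CPM (316 to 401) against 0.286. The lowest of the list were Robo4 at 40.6 CPM, Clec14a at 45.7 and Vwf, the platelet-binding factor, at 63.4, found in 20, 14 and 16 of 60. Ctla2a and Cd34 were higher in another type, at 1061 and 223 CPM in fibroblast-type barcodes against 590 and 161 in the multi-marker members.

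The genes with the highest ratios over all genes mixed vessel genes with interferon-induced ones. With the rule genes left out, Iigp1, an interferon-inducible GTPase, led by the log2 ratio of CPM plus 10, ahead of Cldn5 at 6.16. It was at 1635 CPM (1547 to 1727) against 12.4 (11.7 to 13.2). It was found in 45 of 60 multi-marker members with a median of 9 UMIs and up to 207. Gbp2, a guanylate-binding protein of the same response, was at 421 CPM (377 to 469) against 5.83. Fibroblast-type barcodes had 204 CPM of Iigp1 and 41.1 of Gbp2, and epithelial-type barcodes 1.23 and 3.51. Vim, the intermediate filament of mesenchymal and endothelial cells, was at 6325 CPM against 124, but fibroblast-type barcodes had 1898. Tm4sf1, a membrane protein of endothelial filopodia, was at 3960 CPM (3822 to 4102) against 70.3, and was 28.3 in fibroblast-type and 1.70 in macrophage-type barcodes. Gimap6, Ebf1, Myct1, Apold1, Ptprm, Mctp1, Cavin2 and Dock4 were also among the 20 leading genes, at 256 to 818 CPM, and 254 of the 510 Mctp1 UMIs lay in 1 barcode.

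**Figure D3:**
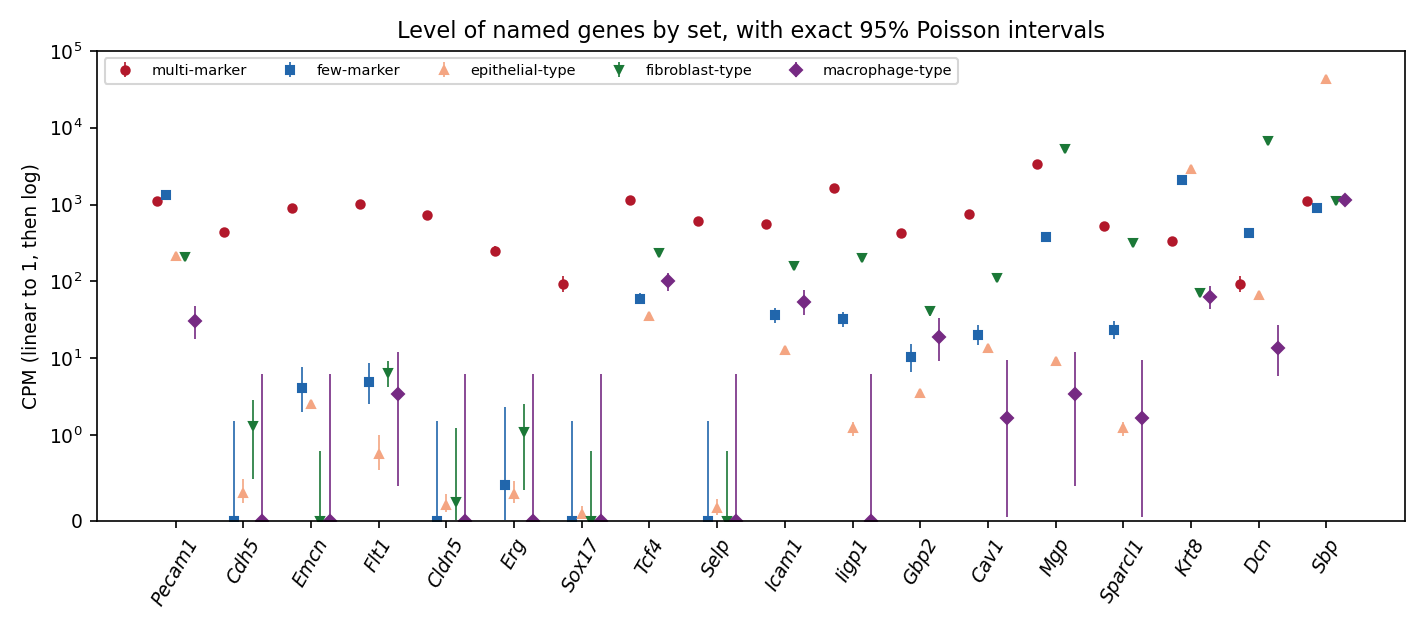
CPM of 18 named genes (y axis, linear to 1 and logarithmic above) in multi-marker and few-marker members and in barcodes that met only the epithelial, fibroblast or macrophage rule; bars are exact 95% Poisson intervals. Few-marker members are at 1330 CPM of Pecam1 but at 0 CPM of Cdh5 and Cldn5, 4.13 of Emcn and 4.96 of Flt1, and Sbp is at 899 to 1160 CPM in every set but the epithelial-type.

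Set against single types, 377 of 9893 genes were at least 4-fold higher in multi-marker members than in fibroblast-type barcodes (3.81%) and 404 lower (4.08%). Against epithelial-type barcodes 538 of 9409 were higher (5.72%) and 183 lower (1.94%), and against macrophage-type barcodes 740 of 9512 were higher (7.78%) and 493 lower (5.18%). Against the few-marker members 399 of 9740 genes were at least 4-fold higher (4.1%) and 211 lower (2.17%). The highest against fibroblast-type barcodes were Tm4sf1, Cldn5, Cyyr1, Selp, Gimap6, Mctp1, Adgrl4, Ptprb, Cavin2 and Cd93.

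The endothelial transcription factors split into a group that marked the set and a group shared with other cells. Of 28 counted, 15 were at least 4-fold higher and 0 lower, with a median log2 ratio of 2.07. The ETS factors Erg and Fli1 were at 249 CPM (215 to 286) against 0.352 and 192 against 3.50, although macrophage-type barcodes had 142 CPM of Fli1. All 3 SoxF factors passed: Sox7 at 221 CPM against 5.10, Sox17 at 93.9 (73.7 to 118) against 0.066, and Sox18 at 41.9 against 0.0881. Tcf4, the E protein, was the most abundant at 1134 CPM (1061 to 1211) against 49.8, and Mef2c was at 278 against 1.63. Klf2, which is induced by blood flow, was at 821 CPM against 139, but 548 in fibroblast-type and 860 in macrophage-type barcodes. Klf4, Klf6, Gata2, Nr2f2 and Ets2 had log2 ratios of 0.60, 0.04, -0.22, 0.57 and -0.39.

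VEGF and angiopoietin receptors were high while most of their ligands were not. In the VEGF list 7 of 9 genes counted were at least 4-fold higher, the rule gene Flt1 among them. Besides Flt1, the main signalling receptor Kdr was at 113 CPM (90.7 to 139) against 0.506, the lymphatic receptor Flt4 at 49.5 against 0.440 (log2 2.51, and 1.36 among members with at least 16 rule-gene UMIs), and the co-receptors Nrp1 and Nrp2 at 119 and 171 against 7.10 and 10.4. Of the ligands, Vegfc was at 96.4 CPM against 1.84 and Pgf at 76.1 against 4.88, whereas Vegfa was at 41.9 against 49.6 and Vegfb at 13.95 against 19.9. Pgf was uneven, with 22 UMIs in 1 barcode and 0 in the 26 barcodes left over from the sets formed below. Vegfa was highest in fibroblast-type barcodes, at 138 CPM. The angiopoietin receptors Tek and Tie1 were at 186 CPM (157 to 219) against 4.28 and 175 (147 to 207) against 0.121. No UMI of the agonist ligand Angpt1 was found in the 60, and fibroblast-type barcodes had 71.1 CPM.

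Other signalling lists were less marked. In the Notch list only the ligand Dll4 of 10 genes counted was at least 4-fold higher, at 122 CPM against 1.11 and found in 38 of 60. Jag1 and Notch1 had log2 ratios of 1.61 and 1.35, and the target Hes1 -0.32. In the BMP and TGF-beta list 5 of 16 were higher: the endothelial co-receptor Eng at 273 CPM against 9.31, Bmp6 at 95.1 against 2.99, Tgfb1 at 188 against 15.9, the receptor Acvrl1 at 114 against 8.27 and Bmpr2 at 231 against 46.8. Bmpr2 was under 4-fold with each barcode weighted equally, at log2 1.89, and with median-ratio scaling, at 1.98. Bmpr1a was the lowest of that list, at 10.1 CPM against 67.0, a log2 ratio of -1.93. In the guidance list 5 of 17 were higher, namely Plxnd1, Plxna2, Sema6a, Sema3g and Robo4, while Robo1 had 0 UMIs.

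Genes for the work of the vessel wall came next. For junctions, 5 of 12 genes were higher, among them Esam at 273 CPM against 2.20 and Jam2 at 218 against 1.74, while the shared genes Tjp1, Ctnnb1 and Ctnnd1 had log2 ratios of 0.97, -0.18 and -0.02. For caveolae and fenestrae, 8 of 11 were higher, led by Cavin2 at 518 CPM (469 to 570) against 6.90 and Cav1 at 755 against 22.4, the genes of the caveolar coat. For flow, clotting and tone, 9 of 17 were higher: Nos3, the nitric oxide synthase of vessels, at 181 CPM (153 to 214) against 0.330, the anticoagulant receptors Thbd at 180 (152 to 212) against 1.18 and Procr at 216 against 4.41, and the adrenomedullin receptor genes Ramp2 and Calcrl at 296 and 226 against 6.09 and 7.39. Edn1, the vasoconstrictor endothelin, did not follow, at 223 CPM against 258. For basement membrane, 4 of 13 were higher, Lama4, Col4a1, Col4a2 and Hspg2, with Col4a1 at 236 CPM in the multi-marker members and 234 in fibroblast-type barcodes.

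**Figure D4:**
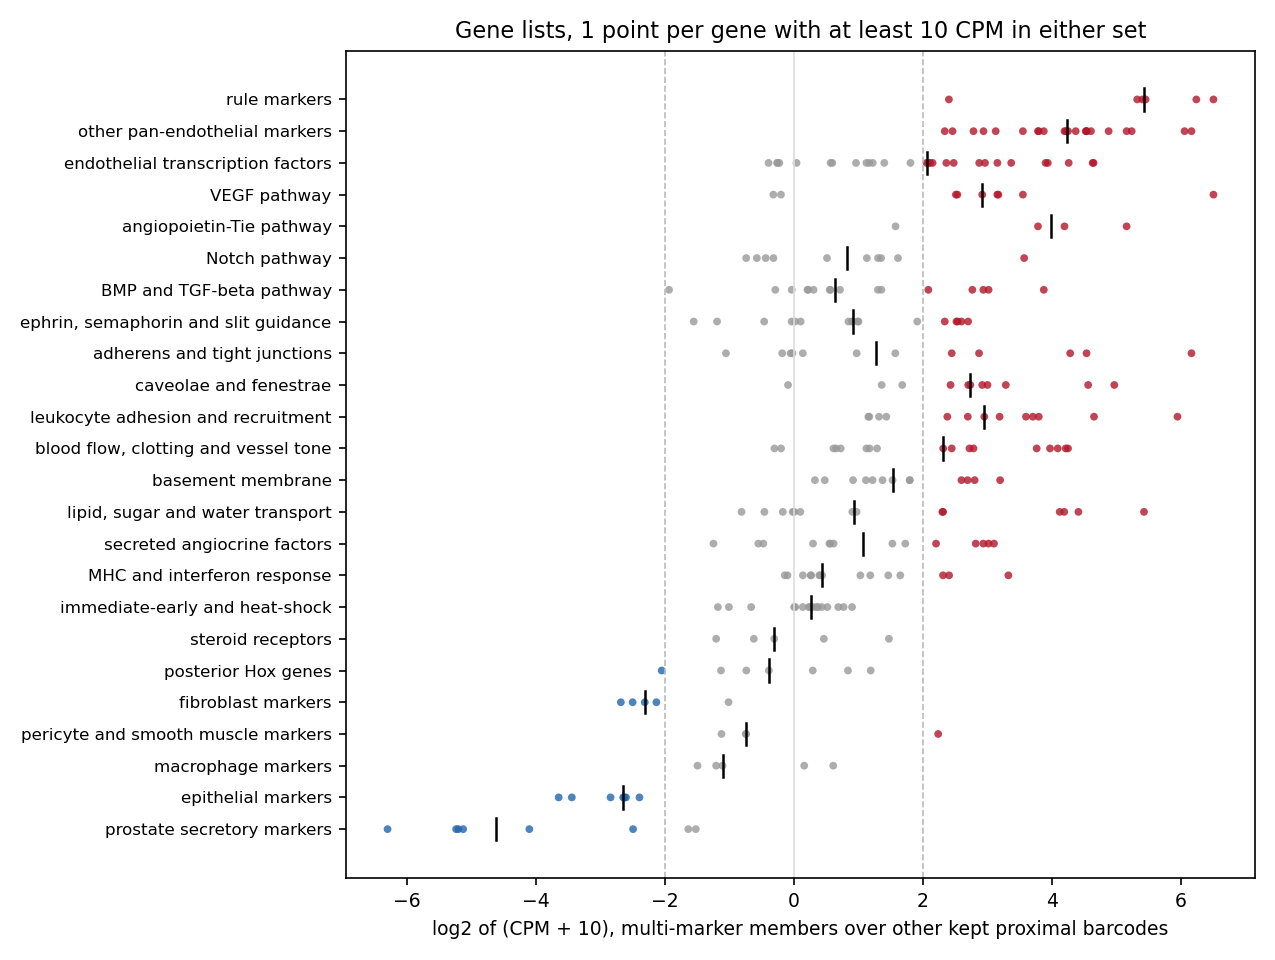
Log2 ratio of CPM plus 10 (x axis), multi-marker members over the other kept proximal barcodes, for each counted gene of 24 lists (y axis); red and blue points are past 4-fold, black bars are medians. The rule genes and further pan-endothelial markers all lie above 2 (medians 5.42 and 4.23), and epithelial and secretory genes lie below 0.

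Of 13 leukocyte adhesion and recruitment genes counted, 9 were at least 4-fold higher, with a median log2 ratio of 2.95, and several were uneven between barcodes. Icam1 was at 553 CPM (502 to 608) against 36.6 and found in 39 of 60, whereas Selp, the P-selectin of veins, was at 613 CPM (559 to 670) against 0.121 but found in 17, with 146 of its 483 UMIs in 1 barcode. Vcam1 had 147 of 333 UMIs in 1 barcode and Cxcl10 217 of 525, and without the barcode with the most UMIs the log2 ratio of Cxcl10 went from 2.38 to 1.94, and with each barcode weighted equally to 1.10. Of 14 transport genes 6 were higher, with a median log2 ratio of 0.94, among them the efflux pumps Abcb1a at 190 CPM against 0.980 and Abcg2 at 204 against 2.33. The fatty acid carrier Fabp4 had 410 UMIs in only 6 barcodes, 177 of them in 1. Lpl and Car4 were at 0 UMIs.

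Genes of the surrounding prostate were low. Hoxb13, a homeobox gene of prostate epithelium, was at 25.4 CPM against 136, a log2 ratio of -2.05, which was -1.74 when each barcode was weighted equally. All 7 epithelial markers and 6 of 8 secretory markers were at least 4-fold lower, with Krt8 at 339 CPM against 2486. Krt8 was found in 35 of 60 multi-marker members, and 1142 of 1301 Pbsn UMIs lay in 1 barcode. Sbp was at 1101 CPM, within the range of 899 to 1160 in few-marker, fibroblast-type and macrophage-type barcodes, and was found in all 60. When 5% of each set's UMIs, with the profile of the whole library, were subtracted as free RNA, 454 genes were at least 4-fold higher and 216 lower in the multi-marker members. None of the 16 immediate-early and heat-shock genes passed in either direction, with a median log2 ratio of 0.27, and of the MHC and interferon list 3 of 15 did, Ly6c1, Isg15 and Irf1, the last at log2 1.93 when each barcode was weighted equally. Of 12 cell cycle genes 2 were counted and 0 were past 4-fold in either direction. The 60 barcodes had 1 UMI of Mki67 and 2 of Top2a, whereas Pcna was found in 48, at 233 CPM against 109 in the other kept barcodes.

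Markers of other cells in the vessel wall were counted in the same barcodes. Of 10 pericyte and smooth muscle markers 8 were found, at 112 CPM in sum, with Rgs5 and Abcc9 at 0, and 43 of 60 barcodes had none. Tagln alone was past 4-fold, with 44 of 72 UMIs in 1 barcode, and was at log2 1.32 when each barcode was weighted equally. Of 6 fibroblast markers 3 were found, with Col1a1, Pdgfra and Lum at 0, and 52 barcodes had none. Macrophage markers summed to 43.1 CPM with C1qc at 0, and 48 barcodes had none. The part of pericytes in the results was not tested.

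The 60 multi-marker members were not alike. Sets of barcodes were formed from genes of arteries, veins and lymph vessels after the values were seen, so the defining genes are a description. Selp with at least 2 UMIs marked 14 barcodes, Bmx, Sema3g and Stmn2 with at least 2 UMIs together marked 15, and 1 barcode met both. At least 3 of Prox1, Lyve1, Flt4, Mmrn1 and Reln were found in 4, and 26 remained. Selp was found together with Sema3g in 0 barcodes, with Bmx in 2, with Stmn2 in 2, with Sox17 in 5 and with Vcam1 in 14.

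Some genes of the vein list and of leukocyte recruitment were higher in the Selp barcodes, and others were rare or not higher. Beyond Selp, the genes with the highest ratios against the other 46 multi-marker members included the chemokine gene Cxcl10, found in 10 of 14 and 10 of 46, Tmem252, in 9 and 11, the E-selectin gene Sele, in 7 and 5, and Vcam1, in 12 and 12. Emcn was at 1574 CPM (1424 to 1737), above the 373 (296 to 464) of the Bmx, Sema3g and Stmn2 barcodes, and Plvap at 613 (520 to 718) against 157 (108 to 219). Iigp1 and Gbp2 were found in all 14, at 2710 and 878 CPM. In the remaining 26 barcodes, which had a lower median depth, they were found in 18 and 10, at 1459 and 159 CPM. The vein factor Nr2f2 was found in 13 of 14, at 253 CPM (195 to 323), and in 13 of the remaining 26, at 104 CPM (67.7 to 152). Of the vein list, Ackr1 was at 162 CPM (116 to 220) in 5 of 14 barcodes, and was found in 1 of 15 Bmx, Sema3g and Stmn2 barcodes and in 0 of the remaining 26. Aplnr was found in 1 of 14, Ephb4 was at 3.96 CPM here and 23.9 in the remaining 26 barcodes, and Bgn at 166 CPM here and 212 in the Bmx, Sema3g and Stmn2 barcodes.

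Some genes of the artery list were higher in the Bmx, Sema3g and Stmn2 barcodes than in the 26 remaining ones, and others were not. Vegfc was found in 11 of 15 at 267 CPM (203 to 345) and in 3 of 26 at 27.9 (11.2 to 57.5). Jag1 was found in 11 of 15 at 175 CPM (124 to 240) and in 4 of 26 at 19.9 (6.47 to 46.5). The intervals of Sox17 overlapped, at 170 CPM (120 to 235) in 13 of 15 and 112 (74.2 to 161) in 13 of 26. The pan-endothelial gene Nos3 was found in 11 of 15 at 438 CPM (354 to 535) and in 12 of 26 at 99.7 (64.5 to 147). Dll4 was at 147 CPM (101 to 208) and 152 (107 to 208), Unc5b at 27.6 and 39.9, and Notch4 at 4.61 and 19.9, and the intervals of all 3 overlapped. The artery genes Gja5 and Hey2 were found in 2 and 1 of 15. Mgp, an inhibitor of calcification, had a median of 23 UMIs per barcode in these and 17 in the Selp barcodes, with 748 of 1637 UMIs in 1 barcode. Cldn5 was at 1635 CPM (1470 to 1815) and 293 (230 to 368). Igf2, Dkk2, Fbln5 and Nebl were among the leading genes, with Igf2 found in 10 of 15 and in 1 of the other 45. Selp and Sele had 0 UMIs, and Nr2f2 was found in 2 of 15.

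The 4 barcodes with Prox1, the lymphatic master factor, and Lyve1, Flt4, Mmrn1 or Reln are too few for more than a list. Mmrn1 and Reln were found in all 4 and in 0 of the other 56. The neurotensin gene Nts was found in 2 of them and in 0 of 56, and Maf in 4 and 4. Reads of Ccl21a, the lymphatic chemokine gene with near-identical copies, were found in 3 and in 0 of 56, and are uncertain for that reason. Plvap had 1 UMI, Flt1 6 and Selp 1 in the 4 barcodes together, while Cldn5 and Icam1 were found in all 4. Gpihbp1, the capillary anchor of lipoprotein lipase, was found in 3 of 4 and in 6 of the other 56.

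The 26 remaining barcodes fell short of the minimums of the other sets and had the lowest median depth, 6835 UMIs against 14633.5 in the Selp and 10895 in the Bmx, Sema3g and Stmn2 barcodes. Flt1 was found in 25 of them, at 1244 CPM (1110 to 1390), Plvap in 21 at 518 (433 to 616) and Emcn in 22 at 774 (669 to 890). Their leading genes against the other 34 were Tcaf3 and the prostate secretory genes Tgm4 and Pbsn, with 556 of the 618 Tgm4 UMIs of the 60 barcodes in 1 barcode, and 4 of the 26 met another type's rule. Prox1 was found in 8 and Lyve1 in 7 of these, without Mmrn1 or Reln. Over all 60 Prox1 was found in 20, among them 5 of the 14 Selp barcodes and 2 of the 15 Bmx, Sema3g and Stmn2 barcodes. The capillary markers Cd300lg, Gpihbp1 and Aqp1 were uneven over all 60, found in 16, 9 and 19.

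**Figure D5:**
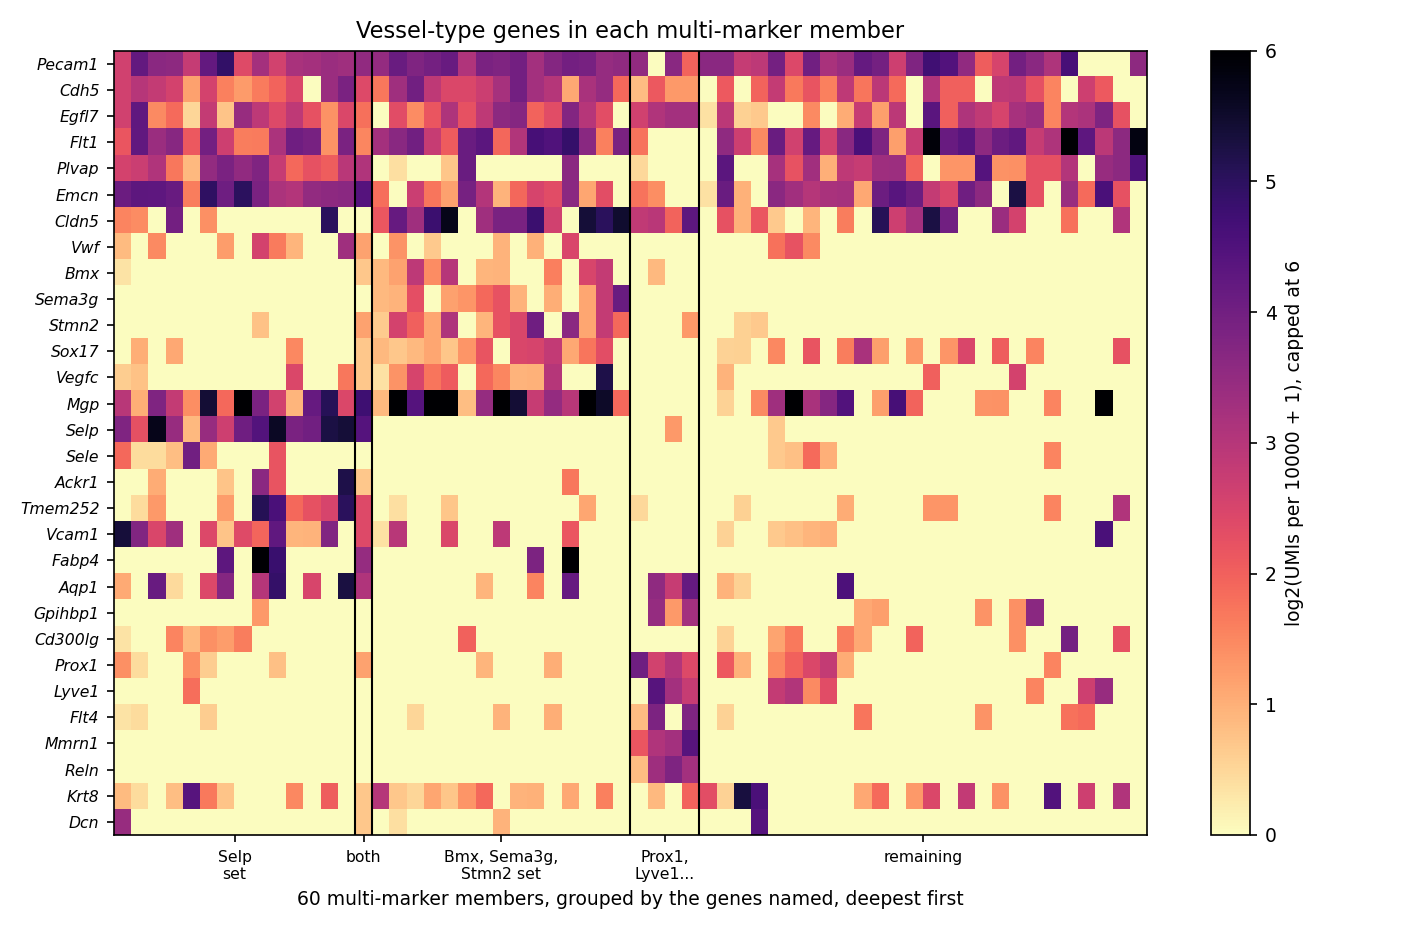
Levels of 30 genes (rows) in each of the 60 multi-marker members (columns), as log2 of UMIs per 10000 plus 1 capped at 6, grouped by the genes named under each block. The blocks were formed on Selp, on Bmx with Sema3g and Stmn2, and on lymph vessel genes that include Mmrn1 and Reln. That these genes lie mostly in different blocks therefore follows from the grouping. Pecam1, Cdh5, Egfl7 and Flt1 run through most of the blocks.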

How the data were processed

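Per the labels' protocols, both libraries were made by 10x Chromium 3' capture. The authors deposited UMI counts per gene and barcode, made with Cell Ranger 7.0.0 on mm10 per the submitters' processing notes, and how strand was used in counting is not given in the sources used here. From these counts, barcodes were filtered and members found as stated above, UMIs were summed over each set and divided by its total (CPM), and genes with at least 10 CPM in either set were compared as log2 of the ratio of CPM plus 10, counted past 4-fold. Intervals are exact at 95% (Poisson for CPM, conditional for ratios, Clopper-Pearson for shares). For shares, barcodes were thinned to 2000 UMIs, leaving out 1 multi-marker and 25 epithelial-type barcodes below that depth. Other types are kept barcodes, not members, that met only 1 of the epithelial, fibroblast and macrophage rules. No doublet caller was run.

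Members, the 34 gene lists and the rules were chosen with earlier results of these data known. Genes were named by rule: the 6 rule genes, and up to 6 past 4-fold from each list with the genes its name rests on. Added were the 20 highest against the other barcodes and the 10 highest against fibroblast-type ones (at least 50 UMIs, found in at least 25%). The 10 lowest among genes of at least 100 CPM were named as well. Genes with Rik or Gm-number names, some receptor genes, and mitochondrial and ribosomal genes were left out. Receptor genes were not left out as a class, since the adhesion receptor gene Adgrl4 was ranked. The same ranking was applied to the multi-marker and few-marker sets, and other list members are named to show a list's range, after the values were seen. Gene positions came from GENCODE and promoters from RefSeq. The calculations were tested on simulated data. Python 3.11.15, numpy 2.4.6, scipy 1.17.1, pandas 2.3.3 and matplotlib 3.10.9 were used. Alternatives changed the UMI and share minimums, the mitochondrial limit, the pseudocount, the scaling, the weighting of barcodes, a subtraction of 5% free RNA, the barcodes of other types and the number of rule genes required.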

Additional observations from a re-analysis of the deposited data

How the results depend on the processing

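No paired analysis was possible because each group holds 1 library. The share of members, 4.48%, was 3.67% with a minimum of 16 UMIs, 1.86% with a share minimum of 0.2%, 3.64% with a mitochondrial limit of 5%, 1.54% without barcodes meeting another type's rule and 1.62% with at least 3 rule genes. The members' 85 higher and 27 lower genes were 409 and 145 at the 0.2% share, 489 and 336 without other types, 249 and 80 with a pseudocount of 1, and 437 and 166 with at least 3 rule genes. For the multi-marker members the share was 2.13% with at least 2 rule genes. Their 437 higher genes were 875 with a pseudocount of 1 and 246 with at least 2 rule genes. Their 166 lower genes were 313 at the 0.2% share, 283 at the 5% mitochondrial limit, 363 without other types, 579 with a pseudocount of 1, 39 with at least 2 rule genes and 314 with at least 5. Settings on the number of rule genes, and all settings for the multi-marker members, were chosen after seeing the data. The cause of these shifts was not tested. Depth limits what a barcode shows: at 2000 UMIs Cdh5 was found in 55.9% of multi-marker members and at 1000 UMIs in 28.8%. Among single genes, 100 named genes past 4-fold in the multi-marker members were recomputed under 15 settings, and 47 values fell short of 4-fold, most of them with at least 2 rule genes. With median-ratio scaling Bmpr2 and Fbln5 were at log2 1.98 and 1.96. With each barcode weighted equally Bmpr2, Fbln5, Irf1, Mgp and Tagln were at 1.89, 1.70, 1.93, 1.94 and 1.32. With at least 2 rule genes, which lets 19 few-marker members in, Bmpr2 was at 1.55, Klf2 at 1.88, Sox18 at 1.76, Clec14a at 1.84, Robo4 at 1.74, Pgf at 1.93, Isg15 at 1.73 and Krt8 at -1.53. In that setting Col1a1 went from -2.31 to 0.61, the 1 change of sign.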

Other observations

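Some barcodes outside the members also held endothelial genes. Among the 3543 other kept proximal barcodes, 9 had at least 3 of the 6 rule genes, 2 had at least 9 of the 22 further pan-endothelial markers, and 20 passed the share of the rule with fewer than 8 UMIs.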
